A study of Mus musculus with 34 samples.

Results

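Mouse liver tumours of subtype A were compared with liver tumours of subtype B, 2 classes that the study distinguished among cancers arising with exon-skipped beta-catenin. The comparison takes in all 4 subtype A libraries and all 9 subtype B libraries, 13 of the 34 libraries in the series, chosen by their source label. Values came as z-scores of 1659 genes that the authors had picked. The deposited values are named as those of differentially expressed genes. Which groups were compared to pick them, and at what threshold, is not stated in the sources used here. Genes picked for differing favour large differences between groups, so the counts below hold for these genes only. A z-score gives a gene's level in a library as a distance from its mean, in SDs of that gene, so a difference between subtypes is in SDs and gives no fold.

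Per the labels, all samples are liver cells, and the cancer model was made by hydrodynamic injection, a fast injection of plasmid solution into the tail vein that delivers DNA to hepatocytes. Total RNA came from frozen tissue and was made into strand-specific libraries. The 3 control libraries in the same block of z-scores carry sgActin, a guide RNA against actin, and YAPS127A, a form of the transcriptional co-activator YAP that escapes inhibitory phosphorylation. The labels used here give no strain, age or time after injection, and for the subtype libraries they name no plasmid, guide or isoform. Whether the tumours also carried YAPS127A is therefore not given in the sources used here. Separate animals are not mentioned either, and p-values therefore reflect only how much these samples vary, which may be technical. The series text names transcriptome and histology as the means of telling the subtypes apart. How each tumour was assigned is not given in the sources used here, so the comparison below may not be independent of that assignment.

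Beta-catenin links cadherins to the cytoskeleton and, when its N-terminal phosphorylation sites are lost, escapes degradation and activates genes with TCF and LEF factors. In normal liver this Wnt signal sets the pericentral programme of hepatocytes, while periportal hepatocytes carry out urea synthesis and gluconeogenesis. YAP works with TEAD factors and is held low in mature hepatocytes. Its activation is known to favour growth and biliary or progenitor features.

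The z-scores were dominated by the distance between tumours and controls. Over the 922 genes with a control mean above 0, the median z-score of a control library lay between 1.97 and 2.10, and over the 737 genes with a control mean below 0 it lay between -1.85 and -1.84. In the first set the subtype A libraries had medians of -0.058, -0.293, -0.311 and -0.198, and the subtype B libraries ran from -0.602 to -0.457. In the second set the subtype A medians were -0.119, 0.159, 0.128 and -0.0086, and those of subtype B ran from 0.258 to 0.699. Every subtype A library thus lay nearer to the controls than every subtype B library in both sets.

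**Figure D1:**
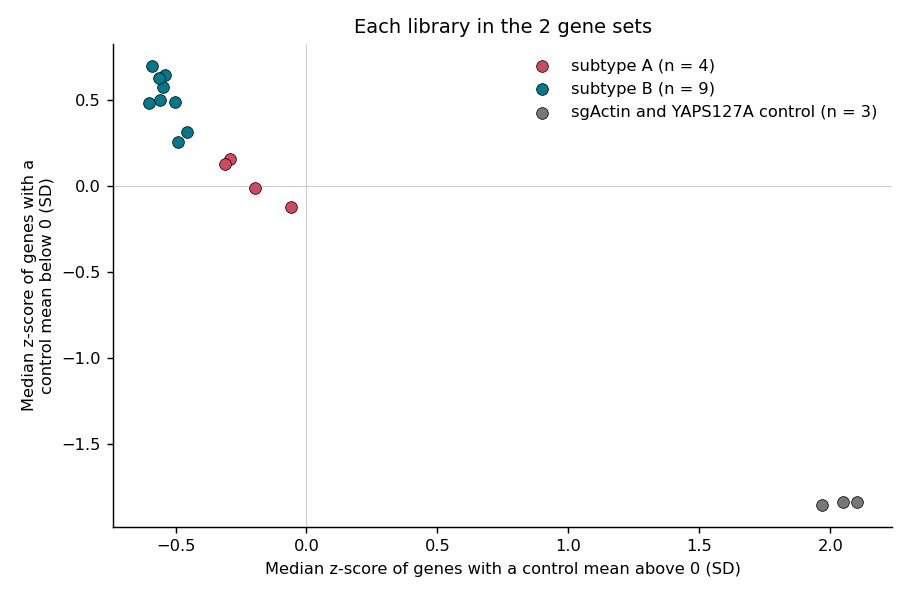
Each point is 1 library: the x axis is its median z-score over the 922 genes with a control mean above 0, the y axis its median over the 737 genes with a control mean below 0, both in SD. The 4 subtype A libraries lie apart from the 9 subtype B libraries on the side of the controls, and subtype A replicate 1, at -0.058 and -0.119, lies farthest from subtype B.

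Subtype A replicate 1 stood apart. Its median correlation with the other subtype A libraries across genes was 0.126, against 0.531 to 0.554 for the other 3, and its median correlation with subtype B libraries was -0.118. On a principal component analysis of the tumours, the first component held 39.4% of the variance and separated the subtypes, with scores of 9.86 to 18.9 in subtype A and -12.3 to 1.13 in subtype B. Subtype A replicate 1 had the highest score. On the second component, with 15.4% of the variance, subtype B replicates 1, 2 and 3 scored -12.9 to -8.25 and the other subtype B libraries -0.496 to 8.0. Counts without subtype A replicate 1 are given below, as are named genes whose calls were lost without it. Leaving out subtype B replicates 1, 2 and 3 together ended the calls of the named genes Abcb1a, Akr1b7, Aox1, Cd44, Frmpd1, Hal, Hamp, Pla2g5, Tek, Tgm2 and Vnn1.

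Of the 1659 genes, 1014 (61.1%) differed between the subtypes at an adjusted p under 0.05 in limma, which is what "called" means below. Higher levels in subtype A were called for 668 genes (40.3%) and lower levels for 346 (20.9%). The called genes that were higher differed by a median of 0.382 SD (0.160 to 1.59), and the lower ones by a median of -0.706 SD (-1.45 to -0.292). Libraries of the subtypes did not overlap, with subtype A higher, for 577 genes (34.8%), and with subtype A lower for 68 (4.1%). Genes that were both called and without overlap numbered 570 (34.4%). Without subtype A replicate 1, 764 genes were called, 517 higher and 247 lower.

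Direction followed the control level. Among the genes with a control mean above 0, 651 of 922 (70.6%) were called higher in subtype A and 0 lower, with a median difference of 0.335. Among those with a control mean below 0, 346 of 737 (46.9%) were called lower and 17 (2.31%) higher, with a median difference of -0.523. The subtype A mean lay between the subtype B mean and the control mean for 997 of the 1014 called genes. Expressed as a share of the distance from the subtype B mean to the control mean, the subtype A mean lay a median of 14.3% along it in genes called higher 28.9% in genes called lower and 14.9% over all genes. This share does not depend on the scaling of a gene. Counts for gene lists below are to be read against 70.6% and 46.9%. Called or not, the difference was positive for 907 of the 922 genes and negative for 652 of the 737. Signs shared within a list are to be read against these.

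**Figure D2:**
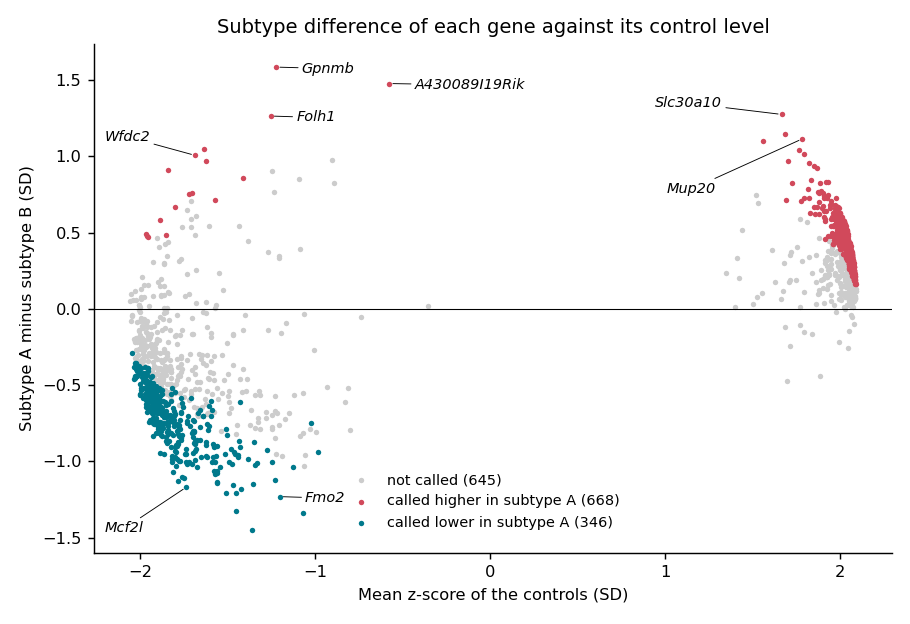
Each point is 1 gene: the x axis is its mean z-score in the 3 controls and the y axis its subtype A mean minus its subtype B mean, both in SD, with genes called higher or lower at an adjusted p under 0.05 in colour. Genes high in the controls lie almost all above 0 and genes low in the controls mostly below it, apart from 17 called genes at the upper left, among them Gpnmb at 1.59 and Folh1 at 1.26.

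The balance of higher and lower calls depended on centring. Subtracting each library's median over all genes shifted the median difference by 0.264 SD and left 116 genes called higher and 472 lower. The median of a library falls among genes that are high in the controls, which make up most of the table. With it subtracted, calls of genes high in the controls are made relative to that general difference. The subtraction lowers the difference of every gene by the same 0.264 SD. Larger falls among genes low in the controls therefore follow from the subtraction itself, and the added lower calls are no separate evidence of a fall. The value after subtraction is given beside most lists below.

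Among genes high in the controls, Slc30a10, Aqp8 and Mup20 had the largest differences without overlap. Slc30a10, a manganese exporter of the hepatocyte's bile-facing membrane (chromosome 1, 185454848 to 185468762, plus strand, in the GENCODE annotation of GRCm38), had z-scores of 1.41, 0.0633, 0.258 and 0.407 in subtype A, from -0.909 to -0.553 with a median of -0.729 in subtype B, and 2.03, 1.45 and 1.52 in the controls. All subtype A libraries were above all subtype B libraries, and subtype A replicate 1 was near the lowest control. The difference was 1.27 SD (SE 0.187, adjusted p = 0.000419), which carried the subtype A mean 53.0% of the way from subtype B to the controls. Without subtype A replicate 1 it was 0.982 SD.

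Mup20, a major urinary protein secreted by male liver (chromosome 4, 62050234 to 62054158, minus strand), had z-scores of 0.760, 0.224, 0.0595 and 0.638 in subtype A. Subtype B ran from -0.887 to -0.533 with a median of -0.681, and the controls were at 2.11, 1.31 and 1.93. The groups did not overlap, and the difference was 1.11 SD (SE 0.146, adjusted p = 0.000372). Its family has near-identical copies, so reads may have been split among them.

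Aqp8, a water channel, differed by 1.15 SD (SE 0.221, adjusted p = 0.00125). The other genes high in the controls among the leading 12 were the kinase gene Mapk15 at 1.10 SD, the carboxylesterase gene Ces2e at 1.04 SD, Cyp2c67 at 1.01 SD, Selenbp2 at 0.969 SD, Csrp3, which encodes a LIM domain protein best known from muscle, at 0.954 SD, and Ddc, the decarboxylase that makes dopamine and serotonin, at 0.935 SD. For all of these the lowest subtype A library was above the highest subtype B library. Cyp2c67 also has close paralogs.

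**Figure D3:**
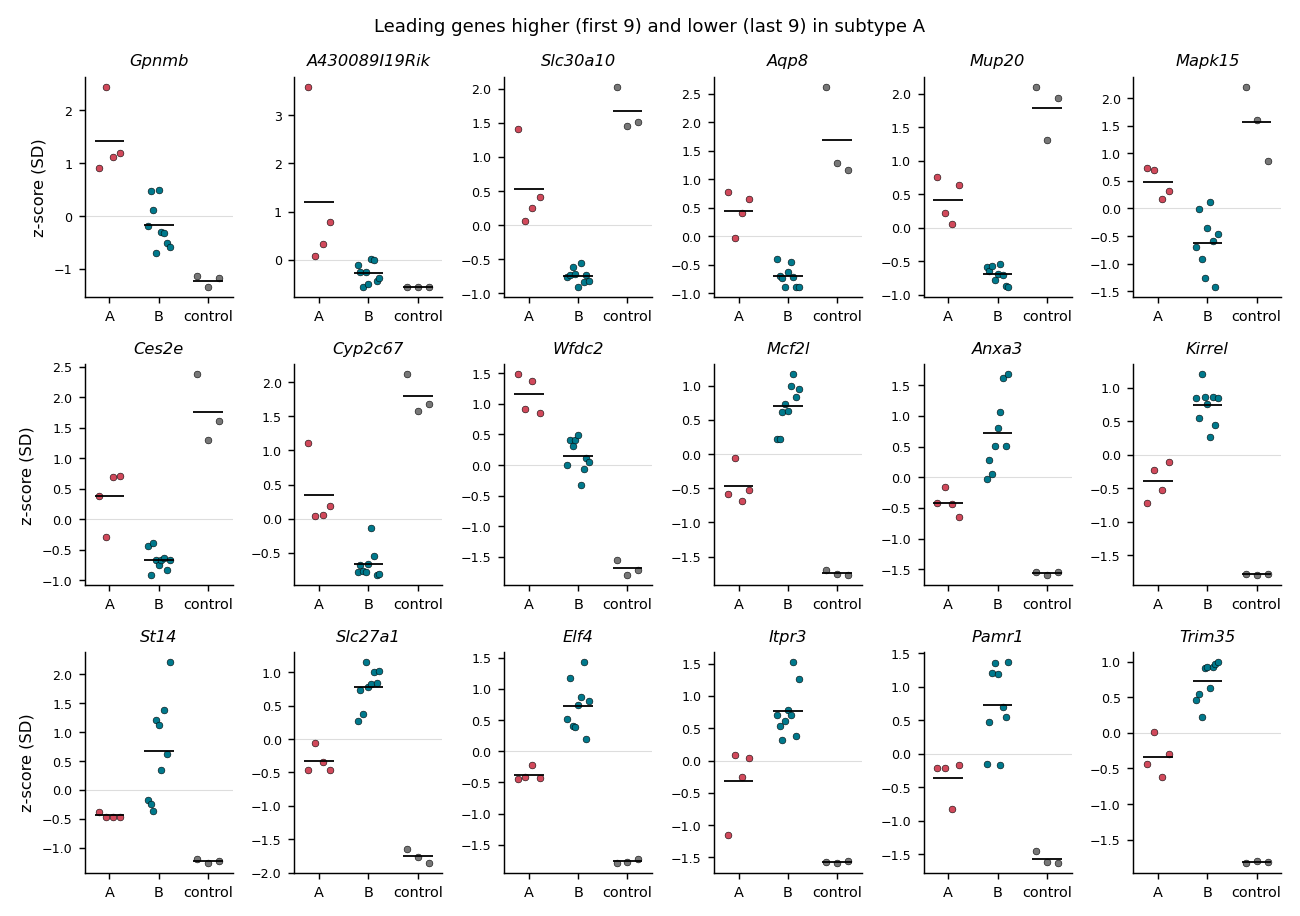
Z-scores in SD of 18 leading genes in each library, with 1 point per library, subtype A (n = 4), subtype B (n = 9) and control (n = 3) on the x axis and a line at each group mean. Subtype A and subtype B do not overlap in any panel, and in Gpnmb, A430089I19Rik and Wfdc2 subtype A lies on the far side of subtype B from the controls.

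A smaller set of genes was farther from the controls in subtype A than in subtype B. These 17 called genes, all low in the controls and all higher in subtype A, were Gpnmb, A430089I19Rik, Folh1, Cd14, Wfdc2, Serpina7, Prom1, Lrrc39, Vnn1, Btg3, Akr1b7, Cfap44, Tgm2, Pla2g5, Frmpd1, Abcb1a and Lif. Of them, 13 were singled out after their values were seen. No called gene had a higher level in the controls and a lower level in subtype A than in subtype B.

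Gpnmb encodes a transmembrane glycoprotein of lysosome-rich cells (chromosome 6, 49036546 to 49070929, plus strand). Its z-scores were 0.902, 2.45, 1.11 and 1.19 in subtype A, from -0.696 to 0.490 with a median of -0.311 in subtype B, and -1.13, -1.35 and -1.18 in the controls. Subtype A was above subtype B in every library, and subtype B above the controls. The difference, 1.59 SD (SE 0.272, adjusted p = 0.000787), was the largest positive one in the table.

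Gpnmb is also a marker of lipid-laden macrophages. Of the other 10 macrophage markers in the table, Clec4f, a Kupffer cell lectin, was called higher at 0.591 SD, while Trem2 (-0.920 SD), Cx3cr1 (-0.906 SD) and Laptm5 (-0.790 SD) were called lower. The remaining 6 were not called, and Laptm5 was not called without subtype A replicate 4. The median difference of the 11 markers was -0.477 SD, or -0.740 SD and 6 lower calls with library medians subtracted. The mean z-score of the 11 markers ranged from -0.282 to 0.430 in subtype A, -0.275 to 0.817 in subtype B and -1.59 to -1.17 in the controls. Adgre1, Cd68 and Csf1r, which define macrophages, are not among the genes of the table, and the part of macrophages in the Gpnmb result was not tested. In bulk tissue, fewer cells of a type and less RNA per cell cannot be told apart, here and in all lists that follow.

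Wfdc2, a secreted protein with WAP domains (chromosome 2, 164562413 to 164568510, plus strand), had z-scores of 1.48, 0.918, 1.38 and 0.859 in subtype A. In subtype B it ran from -0.334 to 0.489 with a median of 0.117, and the controls were at -1.55, -1.80 and -1.71. The 3 groups were separate and in the order control, subtype B, subtype A, with a difference of 1.01 SD between the subtypes (SE 0.155, adjusted p = 0.000435).

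Prom1, the cell surface protein CD133, had z-scores of 0.608, 1.07, 1.20 and 1.25 in subtype A. Its subtype B libraries ran from -0.178 to 0.776 with a median of -0.0245, and the controls were at -1.60, -1.97 and -1.96. Subtype A replicate 1 fell within the subtype B range. The difference was 0.909 SD (SE 0.183, adjusted p = 0.00145).

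A430089I19Rik was high in 1 library. It was at 3.60 in subtype A replicate 1 and at 0.0809, 0.321 and 0.780 in the other 3, against -0.577 to 0.00982 in subtype B with a median of -0.264, and at -0.577 in every control. Its difference was 1.48 SD (SE 0.445, adjusted p = 0.0113) with that library and 0.676 SD (adjusted p = 0.0048) without it. The controls and subtype B replicate 3 share the same value. The scale of A430089I19Rik was set mainly by subtype A replicate 1, so its difference in SD cannot be set beside those of other genes.

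Folh1, a cell surface glutamate carboxypeptidase, was at 0.921, 2.21, 0.330 and 0.880 in subtype A, with subtype B from -1.17 to 1.00 (median -0.160) and the controls at -1.27, -1.27 and -1.23. Its subtypes overlapped, and the difference was 1.26 SD (SE 0.353, adjusted p = 0.00751). Cd14, the co-receptor for bacterial lipopolysaccharide, differed by 1.05 SD (SE 0.278, adjusted p = 0.00578), and the thyroxine carrier Serpina7 by 0.971 SD. The pantetheinase Vnn1 differed by 0.758 SD, the P-glycoprotein gene Abcb1a by 0.476 SD and the cytokine Lif by 0.469 SD. The calls of Cfap44, Frmpd1 and Tgm2 were lost without subtype A replicate 1, and those of Abcb1a, Akr1b7, Btg3, Lif, Lrrc39, Pla2g5 and Vnn1 without at least 1 of the other subtype A libraries. The remaining genes of this set were called whichever library was left out. With library medians subtracted, Serpina7 lost its call, as did every gene of the set that had lost it without a subtype A library. In the exact permutation test, Akr1b7, Btg3, Cfap44, Frmpd1, Lif, Lrrc39, Tgm2 and Vnn1 were not called.

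**Figure D4:**
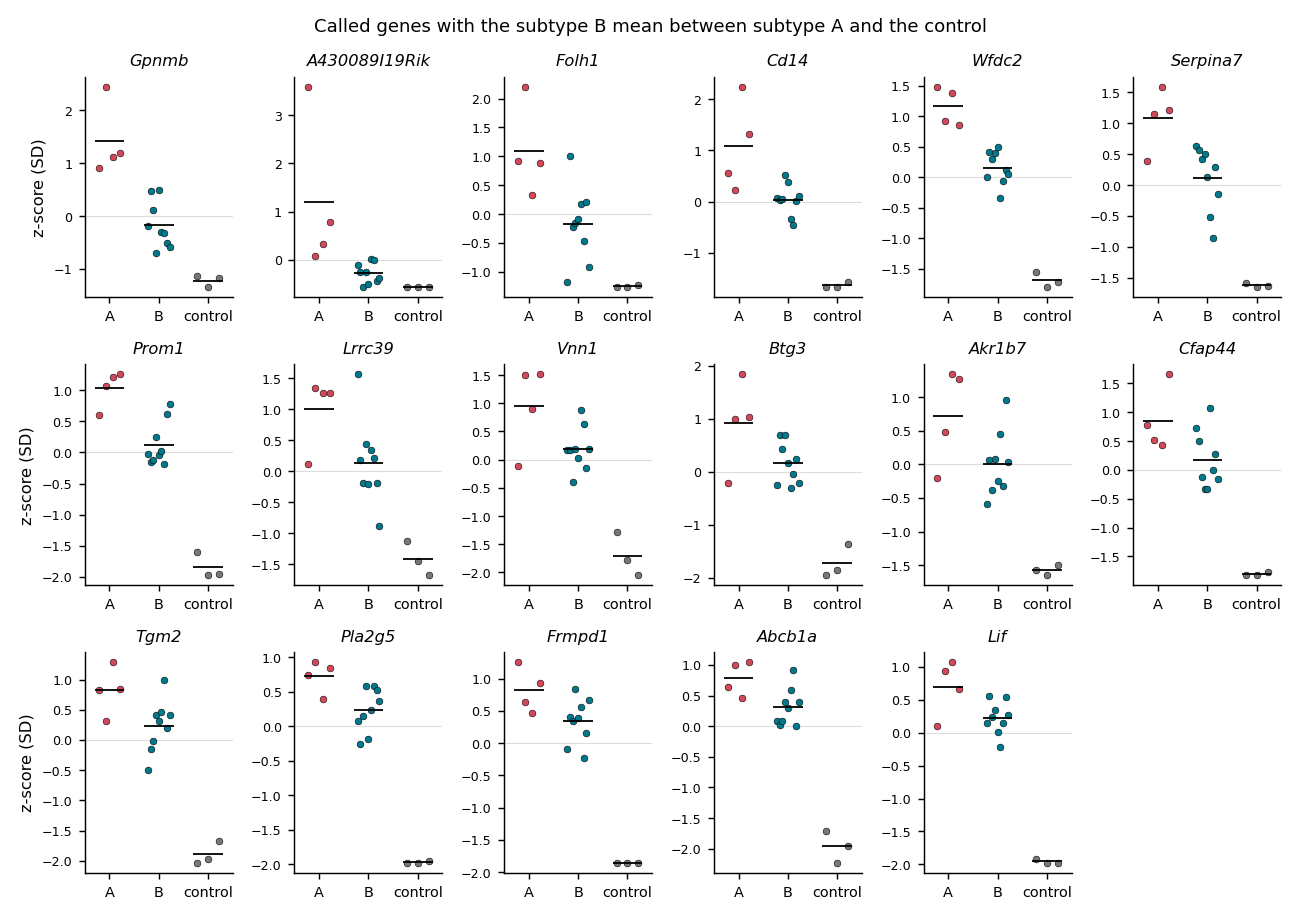
Z-scores in SD of the 17 called genes whose subtype B mean lies between the subtype A mean and the control mean, with 1 point per library and a line at each group mean. The order control, subtype B, subtype A holds for the means in each panel, while subtype A and subtype B libraries overlap in most panels and are separate in Gpnmb, A430089I19Rik and Wfdc2.

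Among genes lower in subtype A without overlap, Mcf2l, Anxa3 and Kirrel led, and all of the leading 12 were low in the controls. Mcf2l, a guanine nucleotide exchange factor for small GTPases (chromosome 8, 12873806 to 13020905, plus strand), had z-scores of -0.580, -0.0576, -0.685 and -0.525 in subtype A. Subtype B ran from 0.215 to 1.16 with a median of 0.734, and the controls were at -1.69, -1.75 and -1.77. Each subtype A library lay between the subtype B range and the controls. The difference was -1.17 SD (SE 0.168, adjusted p = 0.000372), or 47.8% of the way to the controls.

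Kirrel, an adhesion protein of the immunoglobulin superfamily, differed by -1.13 SD (SE 0.149, adjusted p = 0.000372) and the fatty acid transporter Slc27a1 by -1.11 SD (SE 0.145, adjusted p = 0.000372). The membrane protease St14 differed by -1.12 SD, with subtype A libraries between -0.463 and -0.375 and subtype B libraries from -0.355 to 2.21, so the groups nearly touched. The ETS factor Elf4 (-1.10 SD), the calcium channel Itpr3 (-1.08 SD), Pamr1 (-1.08 SD), the ubiquitin ligase Trim35 (-1.07 SD), the NF-kB scaffold Card10 (-1.03 SD) and the growth factor Tgfb2 (-1.01 SD) made up most of the rest. All of these kept a subtype A mean above that of the controls.

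Wnt feedback genes were few in the table and mostly not called. Ctnnb1, Apc, Lgr5, Glul and Tbx3 are not among its genes. Of 4 listed feedback genes present, Axin2, the scaffold of the beta-catenin destruction complex that is itself a Wnt target, was called lower in subtype A. It was at -1.08, -0.103, -0.292 and 0.374 in subtype A, from 0.0169 to 2.21 with a median of 0.511 in subtype B, and at -1.47, -1.42 and -1.49 in the controls. Subtype A replicate 4 lay inside the subtype B range. The difference was -0.951 SD (SE 0.341, adjusted p = 0.0258), and without subtype A replicate 1 it was -0.682 SD and not called (adjusted p = 0.124). Nor was it called without subtype A replicate 3. Ccnd1 (0.041 SD), Myc (-0.0859 SD) and Tnfrsf19 (-0.456 SD) were not called. With library medians subtracted, 2 of the 4 were called lower and the median went from -0.271 SD to -0.535 SD.

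Pericentral genes were called in both directions. Of 10 present, 5 were higher and 2 lower in subtype A, with a median difference of 0.299 SD, or 0.035 SD with library medians subtracted. Aldh1a7, a retinaldehyde dehydrogenase relative, was at 0.229, -0.255, 0.171 and 0.262 in subtype A, from -0.815 to -0.608 with a median of -0.731 in subtype B, and at 1.88, 1.71 and 1.91 in the controls. The subtypes did not overlap, with a difference of 0.847 SD (SE 0.0885, adjusted p = 0.000121). Cyp27a1 (0.586 SD), Cpox (0.560 SD), Slco1b2 (0.375 SD) and Cyp1a2 (0.275 SD) were also called higher. Axin2 and the dioxin receptor gene Ahr (-0.616 SD) were the lower ones, and neither was called without subtype A replicate 1. Only 1 lower call, Axin2, was left when any of subtype B replicates 3 to 9 was taken out.

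All 16 periportal genes present had a positive difference, as did 907 of the 922 genes high in the controls. Of the 16, 7 were called higher, a share below the 70.6% of all genes high in the controls. The median difference of the 16 was 0.216 SD, which turned to -0.048 SD with library medians subtracted. Apoc2, an activator of lipoprotein lipase, was among them (0.589 SD, SE 0.117, adjusted p = 0.00139). Hal, which degrades histidine, differed by 0.212 SD and was not called without subtype A replicate 1 (adjusted p = 0.072). The count of 7 was 2 without subtype A replicate 1 and 16 in a fit without the controls, and it was 4 without subtype B replicates 1, 2 and 3.

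YAP and TEAD target genes were lower in subtype A. All 9 present were low in the controls, which carry YAPS127A. All 9 had a negative difference, as did 652 of the 737 genes low in the controls. Tgfb2, Gadd45b, Ankrd1, Myof, Ptpn14, Arhgef17 and Tead1 were called, Ajuba and Amotl2 were not, and the median difference was -0.715 SD. Among all genes low in the controls, 46.9% were called lower and the median difference was -0.523 SD. The count for the list was also 7 without subtype A replicate 1. It was 9 with library medians subtracted (median -0.978 SD), which lowers the difference of every gene alike. The mean z-score of the 9 genes was -0.218 to 0.0592 in subtype A, 0.163 to 0.899 in subtype B and -1.87 to -1.83 in the controls, so the subtypes did not overlap. The library medians over all genes low in the controls were likewise separate between subtypes. Yap1, Ccn1 and Ccn2 are not among the genes of the table.

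The promoters of Ankrd1 and Ptpn14 are shown because TEAD factors bind the letters GGAATG, which are in capitals. Both were taken from RefSeq on GRCm38.p6, 250 bases before to 50 bases after the start, written in the direction of the gene: Ankrd1 is chr19:36119795-36120094 on the minus strand and Ptpn14 is chr1:189728018-189728317 on the plus strand, where the letters stand on the opposite strand.
Ankrd1: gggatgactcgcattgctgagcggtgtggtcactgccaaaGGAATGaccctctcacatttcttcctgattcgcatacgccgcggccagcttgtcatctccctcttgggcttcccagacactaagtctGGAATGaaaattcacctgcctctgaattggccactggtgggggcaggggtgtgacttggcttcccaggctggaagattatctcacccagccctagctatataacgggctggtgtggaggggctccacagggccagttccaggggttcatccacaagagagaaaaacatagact
Ptpn14: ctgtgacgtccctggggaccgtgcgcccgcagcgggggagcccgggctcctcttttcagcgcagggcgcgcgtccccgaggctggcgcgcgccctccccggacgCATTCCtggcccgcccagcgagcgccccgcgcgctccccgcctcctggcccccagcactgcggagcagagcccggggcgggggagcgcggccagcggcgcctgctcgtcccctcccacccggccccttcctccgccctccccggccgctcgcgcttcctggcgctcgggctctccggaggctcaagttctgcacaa
In Ankrd1 the letters begin 210 and 123 bases before the start, and in Ptpn14 146 bases before it. On either strand, 4 of the 7 list members found in the promoter table held GGAATG (57.1%; Ajuba, Amotl2, Ankrd1 and Ptpn14), against 16.6% of all 27025 genes of that table. The share was 16.2% both among genes called higher and among genes called lower, and 16.7% among all compared genes found there. The list was made of TEAD targets, so its share does not bear on the difference between subtypes. Ajuba and Amotl2 hold the letters but were not called. A match describes letters and not a bound site.

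Ptpn14, a phosphatase that holds YAP in the cytoplasm and is itself a YAP target, was at -0.0979, -0.0471, 0.165 and -0.155 in subtype A. In subtype B it ran from 0.304 to 1.17 with a median of 0.715, and the controls were at -1.87, -1.98 and -1.93. The subtypes did not overlap, and the difference was -0.715 SD (SE 0.129, adjusted p = 0.000963). Ankrd1, an ankyrin repeat protein much used as a YAP readout and named after its values were seen, was at 0.335, -0.221, -0.779 and -0.552 in subtype A, with subtype B from -0.343 to 1.11 (median 0.595) and the controls at -1.62, -1.61 and -1.61. Its libraries overlapped, and it differed by -0.796 SD (SE 0.267, adjusted p = 0.0189). The letters CTTTGA, which TCF and LEF factors bind, stood in the promoters of 20.1% of genes called higher, 11.2% of genes called lower and 18.2% of all genes of the promoter table.

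Of 13 biliary and progenitor genes present, 6 were called lower (Anxa4, Bicc1, Jag1, Pkhd1, Sox4 and St14), Prom1 was called higher, and 6 were not called, so the share of lower calls was near the 46.9% of all genes low in the controls. Their median difference was -0.536 SD, or -0.800 SD and 8 lower calls with library medians subtracted. Pkhd1, the fibrocystin of bile duct cilia, was at 0.140, 0.162, -0.630 and -0.447 in subtype A and from 0.189 to 0.997 in subtype B (median 0.414), without overlap, and differed by -0.756 SD (SE 0.174, adjusted p = 0.00274). Jag1, a Notch ligand, differed by -0.573 SD (SE 0.171, adjusted p = 0.0107). The count of lower genes was 4 without subtype A replicate 1, and Anxa4 was among those lost. Epcam (-0.763 SD, adjusted p = 0.0866), Sox9 (-0.377 SD) and Spp1 (-0.0382 SD) did not pass, nor did the keratin gene Krt8 (-0.237 SD). As markers of cholangiocytes, 5 genes present had a mean z-score of -0.223 to 0.517 in subtype A and -0.0936 to 1.46 in subtype B, which overlap, and their part in these results was not tested.

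Oncofetal genes gave 2 calls of 9, both lower in subtype A: the RNA-binding protein gene Igf2bp1 (-0.566 SD, SE 0.141, adjusted p = 0.00402) and the hyaluronan receptor gene Cd44 (-0.741 SD, SE 0.247, adjusted p = 0.0184). Cd44 was not called without subtype A replicate 1. With library medians subtracted, 3 were called lower and the median difference went from -0.206 SD to -0.470 SD. Afp, the fetal serum protein, was at -0.211, -0.185, -0.0641 and -0.141 in subtype A and ran from -0.604 to 2.51 in subtype B with a median of -0.0436. The range of Afp among subtype B libraries exceeded the difference of means, -0.683 SD (adjusted p = 0.191), and it was called without subtype B replicates 1, 2 and 3 (-1.08 SD, adjusted p = 0.044). Gpc3 differed by -0.176 SD and H19 by 0.0168 SD, and neither passed. H19 is listed close to -0.353 in every control. Its means were also below 0 in subtype A (-0.203) and subtype B (-0.220). The scale of H19 was therefore set mainly by 1 further library, which entered the authors' scaling but not this comparison. Its difference in SD cannot be set beside those of other genes or read as no change.

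All 17 cell division genes present had a negative difference, as did 652 of the 737 genes low in the controls. Of the 17, 2 were called, a share below the 46.9% of all genes low in the controls. Mki67 was at -0.540, 0.356, 0.0718 and 0.180 in subtype A, from 0.0696 to 1.23 with a median of 0.526 in subtype B, and at -1.90, -1.89 and -1.92 in the controls. Subtype A replicate 1 was the lowest tumour library, and the difference of -0.575 SD (SE 0.214, adjusted p = 0.0301) became -0.390 SD without it and did not pass. Top2a, which untangles DNA at mitosis, went from -0.627 SD (adjusted p = 0.0337) to -0.427 SD in the same way. The number of proliferation genes called lower was 0 without that library, 0 without subtype A replicate 3, 6 without subtype B replicate 1, 9 without subtype B replicates 1, 2 and 3, and 7 with library medians subtracted.

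Genes of the mitochondrial respiratory chain were higher in subtype A almost without exception. Of 36 present, 35 were called higher, from all the complexes, and Ndufa5 (0.238 SD) was not. The median difference was 0.344 SD, close to the 0.335 SD of all genes high in the controls, and the share called stands beside 70.6% for those genes. With library medians subtracted the median was 0.080 SD and 1 gene was called. Without subtype A replicate 1, 28 were called. The mean z-score of the 36 genes was -0.295 to -0.0954 in subtype A, -0.667 to -0.475 in subtype B and 1.90 to 2.23 in the controls.

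Uqcrq, a subunit of complex III, led the list. It was at -0.107, -0.0596, -0.0708 and 0.138 in subtype A, from -0.763 to -0.388 with a median of -0.654 in subtype B, and at 2.20, 1.84 and 2.02 in the controls. All subtype A libraries were above subtype B, with a difference of 0.572 SD (SE 0.0892, adjusted p = 0.00045). The complex IV subunit Cox6b1 differed by 0.404 SD, the Rieske protein gene Uqcrfs1 by 0.346 SD and the succinate dehydrogenase subunit Sdhd by 0.342 SD.

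The promoter of Sdhb, another succinate dehydrogenase subunit, is shown for the letters GCGCATGC, which NRF1, a factor of mitochondrial genes, binds. It is chr4:140961021-140961320 on the plus strand, from RefSeq on GRCm38.p6, with the letters in capitals on the opposite strand.
Sdhb: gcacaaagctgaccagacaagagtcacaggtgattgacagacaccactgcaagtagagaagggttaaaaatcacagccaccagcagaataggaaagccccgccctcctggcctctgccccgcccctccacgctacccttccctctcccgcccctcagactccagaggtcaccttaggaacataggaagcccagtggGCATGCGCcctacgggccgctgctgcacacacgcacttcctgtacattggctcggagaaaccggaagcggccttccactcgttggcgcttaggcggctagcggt
The letters begin 54 bases before the start. Of the 26 respiratory chain members in the promoter table, 4 held them on either strand (15.4%; Cox6a1, Cycs, Sdhb and Uqcrc1), against 3.05% of all its genes, 5.66% of those called higher and 3.85% of those called lower. Sdhb itself, named after its values were seen, was at -0.0349, -0.346, -0.363 and -0.251 in subtype A, from -0.604 to -0.447 in subtype B, and at 2.28, 1.91 and 2.02 in the controls. It differed by 0.278 SD (SE 0.079, adjusted p = 0.00829) with no overlap.

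Fatty acid oxidation genes were called higher in 10 of 12 cases, with a median difference of 0.409 SD (0.146 SD and 1 call with library medians subtracted). The 10 include Vnn1, which was low in the controls. Among all genes high in the controls, 70.6% were called higher. Hadha, a subunit of the trifunctional protein, was at -0.0508, -0.314, -0.0646 and 0.060 in subtype A, from -0.814 to -0.346 with a median of -0.608 in subtype B, and at 2.26, 1.91 and 1.92 in the controls. It differed by 0.496 SD (SE 0.0967, adjusted p = 0.00134). The acyl-CoA dehydrogenase gene Acadvl differed by 0.411 SD and the carnitine transferase gene Cpt2 by 0.398 SD. None of these 3 overlapped between subtypes. Ppara, the nuclear receptor that drives this pathway, differed by 0.306 SD (SE 0.108, adjusted p = 0.0241) and lost its call without subtype A replicate 1 or 2.

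Glycolysis genes present were mostly those shared with gluconeogenesis, and 6 of 8 were called higher, beside 70.6% of all genes high in the controls. The 6 included Gapdh (0.505 SD), Tpi1 (0.459 SD), Ldhd (0.410 SD), Pgk1 (0.362 SD) and Pgam1. Of these, 1 was called with library medians subtracted. Pkm, the pyruvate kinase of fetal and tumour cells, was low in the controls and differed by -0.200 SD without passing. Of 9 genes of cholesterol and fatty acid synthesis, 4 were called higher: the sterol enzymes Dhcr7 (0.668 SD, SE 0.226, adjusted p = 0.0195), Nsdhl (0.625 SD) and Sc5d (0.507 SD), and the acetyl-CoA synthetase gene Acss2 (0.296 SD). None of the 4 was called with library medians subtracted. Dhcr7 was not called without subtype A replicate 1 (adjusted p = 0.0514), nor Nsdhl without subtype A replicate 2 or 4.

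Coagulation and complement proteins are secreted into blood by hepatocytes. Of 28 coagulation and complement genes, 26 were called higher (21 without subtype A replicate 1), beside 70.6% of all genes high in the controls. The median difference of the 28 was 0.421 SD, or 0.158 SD and 7 calls with library medians subtracted. Over all genes high in the controls it was 0.335 SD. C6, of the membrane attack complex, was at 0.409, 0.325, 0.0479 and 0.254 in subtype A, from -0.953 to -0.452 with a median of -0.633 in subtype B, and at 1.40, 1.77 and 2.44 in the controls. It differed by 0.925 SD (SE 0.150, adjusted p = 0.000538) without overlap. The mannose-binding lectin genes Mbl1 (0.833 SD) and Mbl2 (0.549 SD) and antithrombin, Serpinc1 (0.543 SD, SE 0.0775, adjusted p = 0.000372), were likewise separate between subtypes. C4a (0.0739 SD) and Hc (0.421 SD) were not called.

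Among 18 genes of general hepatocyte function, 10 were called higher, a share below the 70.6% of all genes high in the controls. The median difference of the 18 was 0.285 SD (0.021 SD and 2 calls with library medians subtracted). Apob, the backbone of secreted lipoproteins, was at 0.0556, -0.200, -0.0608 and 0.0389 in subtype A, from -0.815 to -0.414 in subtype B (median -0.647) and at 1.96, 1.99 and 2.11 in the controls, a difference of 0.576 SD (SE 0.0836, adjusted p = 0.0004). Fah, the last enzyme of tyrosine breakdown, differed by 0.446 SD. Alb was at -0.0582, -0.420, -0.273 and -0.294 in subtype A and from -0.622 to -0.416 in subtype B, with 1 subtype A library inside that range, and its 0.243 SD did not pass (adjusted p = 0.130). The controls spread widely for Alb, at 2.66, 1.72 and 1.73, and it passed in a fit without them (adjusted p = 0.00707). The count of 10 was 17 in that fit and 5 without subtype A replicate 1. Z-scores have no zero, so whether the markers of hepatocytes were present in each library could not be read from them.

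Bile acid genes were called higher in 11 of 16 cases, a share near the 70.6% of all genes high in the controls. The median difference of the 16 was 0.397 SD (0.133 SD and 4 calls with library medians subtracted). They included the synthesis enzymes Hsd3b7 (0.677 SD, SE 0.111, adjusted p = 0.000575) and Cyp27a1, the conjugating enzyme Baat (0.524 SD), the export pump Abcb11 (0.547 SD, SE 0.0964, adjusted p = 0.000853), and Nr1h4, the bile acid receptor FXR (0.419 SD). Abcb11 was at -0.0278, -0.0868, -0.152 and -0.00638 in subtype A, from -0.816 to -0.458 in subtype B and at 2.15, 1.69 and 2.22 in the controls, with no overlap. Of 8 hepatocyte transcription factors, Nr1h4, Creb3l3 (0.330 SD) and Ppara were the 3 called, all higher. Their list's median of 0.318 SD was 0.054 SD with library medians subtracted, with 2 called lower and none higher.

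Cytochrome P450 and conjugation genes counted 23 higher and 1 lower of 35, the higher share being near the 70.6% of all genes high in the controls. The median difference of the 35 was 0.309 SD (0.045 SD and 5 higher calls with library medians subtracted). Beside Cyp2c67, the leading ones were the glutathione transferase gene Gstm4 (0.83 SD), Cyp4f14 (0.730 SD) and Cyp2a12 (0.602 SD), all in families with close paralogs. Fmo2, a flavin monooxygenase, was the lower one. It was at 0.253, -0.630, -0.895 and -0.854 in subtype A, from -0.565 to 1.84 with a median of 0.881 in subtype B, and at -0.848, -1.44 and -1.32 in the controls, so 3 of 4 subtype A libraries were below subtype B. The difference was -1.23 SD (SE 0.373, adjusted p = 0.0116).

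Genes known to be male-biased in mouse liver were called higher in 11 of 17 cases, a share near the 70.6% of all genes high in the controls. The median difference of the 17 was 0.288 SD, or 0.024 SD and 2 calls with library medians subtracted. They included Mup20, Selenbp2, Ces3a (0.391 SD), Ugt2b1 (0.357 SD) and Cyp2d9 (0.248 SD). The count was 7 without subtype A replicate 1 and 17 in a fit without the controls. Of 5 female-biased genes, Prom1 was called higher and Fmo2 lower, and the median difference of 0.233 SD turned to -0.031 SD with library medians subtracted. The sex of the animals did not enter the comparison, and its part in these values was not tested.

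Acute phase genes gave 2 calls of 10, both higher: the pattern recognition protein Crp (0.427 SD, SE 0.134, adjusted p = 0.0137) and the iron hormone Hamp (0.577 SD, SE 0.200, adjusted p = 0.0218). Neither was called without subtype A replicate 1, 6 were called in a fit without the controls, and the list's median of 0.225 SD turned to -0.038 SD with library medians subtracted. Of 7 NRF2 antioxidant genes, 4 were called higher: Gclc, which limits glutathione synthesis (0.762 SD, SE 0.192, adjusted p = 0.00434), Ugdh (0.727 SD), Aox1 (0.452 SD) and Akr1c13 (0.345 SD). With library medians subtracted the median of the list was 0.305 SD and none was called, and Aox1 was not called when any 1 of the 4 subtype A libraries was left out. Slc7a11, the cystine importer, was low in the controls. It was at -0.268, 0.244, 1.92 and 1.10 in subtype A and from -0.289 to 0.920 in subtype B, and did not pass (0.592 SD).

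Few immune response genes were called, below the 46.9% of all genes low in the controls. A negative difference alone was general, in 652 of those 737 genes. All 9 interferon-stimulated genes present had a negative difference (median -0.563 SD, or -0.826 SD with library medians subtracted) and 3 were called lower: Mx1 (-1.01 SD, SE 0.332, adjusted p = 0.017), Oasl2 (-0.923 SD, SE 0.313, adjusted p = 0.02) and Ifit2 (-0.605 SD, SE 0.133, adjusted p = 0.00223). Ifit2 was at -0.209, -0.0786, -0.395 and -0.290 in subtype A, from -0.0314 to 0.658 with a median of 0.447 in subtype B, and at -1.60, -1.62 and -1.58 in the controls. It was the 1 of the 3 without overlap. Without subtype A replicate 2, Mx1 and Oasl2 were not called, nor was Oasl2 without subtype A replicate 4. With library medians subtracted, 5 of the 9 genes were called.

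Of 10 antigen presentation genes, the class I gene H2-Q4 (-0.949 SD, SE 0.237, adjusted p = 0.00404) and the cathepsin gene Ctss (-0.778 SD, SE 0.289, adjusted p = 0.0301) were called lower. H2-Q10, a class I gene secreted by hepatocytes, was called higher (0.480 SD, SE 0.0891, adjusted p = 0.0011). Ctss lost its call without subtype A replicate 2, 3 or 4. The median difference was -0.752 SD, or -1.02 SD and 3 lower calls with library medians subtracted. The class II genes were not called. Cd74, their invariant chain, ran from -0.393 to 2.20 among subtype B libraries with a median of -0.0231, against 0.0368, -0.663, -0.288 and -0.564 in subtype A (-0.790 SD, adjusted p = 0.102). Markers of T and NK cells are in the table only as Cd247 (-0.808 SD, not called), and those of B cells, plasma cells and neutrophils not at all, so their level could not be compared.

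Of 27 basement membrane and matrix genes present, 11 were called lower in subtype A, Dcn was called higher and 15 were not called, a share of lower calls near the 46.9% of all genes low in the controls. Their median difference was -0.556 SD (-0.819 SD and 17 lower with library medians subtracted), and the number called lower was also 11 without subtype A replicate 1. Hspg2, the basement membrane proteoglycan perlecan, was at -0.515, -0.0807, -0.167 and -0.298 in subtype A, from 0.229 to 1.59 with a median of 0.665 in subtype B, and at -1.69, -1.74 and -1.73 in the controls. The subtypes were separate and differed by -1.01 SD (SE 0.204, adjusted p = 0.00154).

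The laminin gene Lama5 was also separate between subtypes, at -0.742 SD (SE 0.131, adjusted p = 0.000859). The type IV collagen genes Col4a1 (-0.667 SD) and Col4a2 (-0.735 SD), the laminin genes Lamb2 and Lamc1, and Sparc (-1.03 SD) were called lower with overlap. The fibrillar collagen genes Col1a1 (-0.443 SD), Col1a2 (-0.540 SD) and Col3a1 (-0.412 SD) did not pass. Dcn, decorin, was high in the controls and higher in subtype A by 0.541 SD (adjusted p = 0.0116), a call lost without subtype A replicate 1. The 5 stellate cell and fibroblast markers present mix Dcn and Ecm1, high in the controls, with Col1a1, Col1a2 and Col3a1, low in the controls. Ecm1 was called higher without overlap (0.343 SD, adjusted p = 0.0032), but not with library medians subtracted. The list mean was -0.405 to 0.382 in subtype A, -0.347 to 0.539 in subtype B and -0.329 to -0.181 in the controls. That mean pools opposite directions, so its overlap does not show similar levels. The part of these markers in the matrix result was not tested.

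Annexin, S100 and cytoskeleton genes gave 9 lower and 1 higher call of 19, a share of lower calls near the 46.9% of all genes low in the controls. Their median difference was -0.373 SD (-0.637 SD and 11 lower with library medians subtracted), a smaller fall than the -0.523 SD of all genes low in the controls. Anxa3, a phospholipid-binding protein, was at -0.411, -0.161, -0.431 and -0.654 in subtype A, from -0.0217 to 1.68 with a median of 0.514 in subtype B, and at -1.55, -1.59 and -1.54 in the controls, with a difference of -1.14 SD (SE 0.281, adjusted p = 0.00386) and no overlap. S100a6, a calcium-binding protein, differed by -0.900 SD (SE 0.220, adjusted p = 0.00369) and the actin cross-linker Flna by -0.525 SD. The count of lower genes was 3 without subtype A replicate 1.

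The 4 endothelial markers present were all called, in both directions. Clec4g, a lectin of sinusoidal endothelium, was at -0.0208, 0.0182, -0.291 and -0.0353 in subtype A, from -0.689 to -0.153 with a median of -0.629 in subtype B, and at 2.09, 1.80 and 2.18 in the controls (0.480 SD, SE 0.108, adjusted p = 0.00248). The VEGF receptor gene Kdr differed by 0.447 SD and the angiopoietin receptor gene Tek by 0.441 SD. None of these 3 was called with library medians subtracted. Cd34, which marks capillary endothelium and was low in the controls, differed by -0.720 SD (SE 0.222, adjusted p = 0.0127), and was not called without subtype A replicate 2. Tek was near the threshold (adjusted p = 0.0415). It was not called without subtype A replicate 1 or 4, without subtype B replicate 1, 2, 3, 4, 8 or 9, or in the exact permutation test. In each of the 4 genes the libraries of the subtypes overlapped and the subtype A mean lay between subtype B and the controls.

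**Figure D5:**
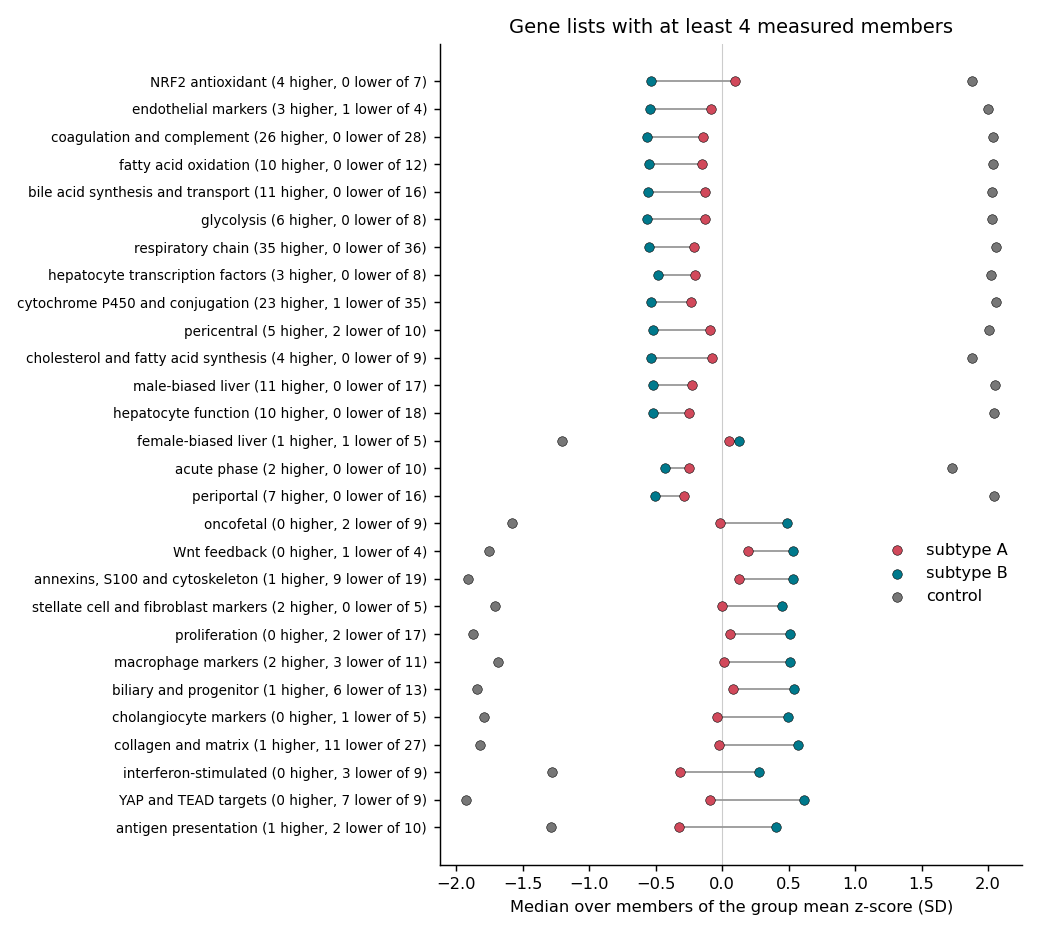
Each line is 1 gene list with at least 4 measured members, and its points give the median over members of the group mean z-score in SD for subtype A, subtype B and the controls, with the counts of members called higher and lower in subtype A beside the name. Subtype A lies between subtype B and the controls in nearly all lists, with the widest gaps between subtypes for antigen presentation and for YAP and TEAD targets.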

How the data were processed

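RNA sequencing libraries of 4 subtype A tumours, 9 subtype B tumours and 3 sgActin and YAPS127A controls were compared. The deposited values are a score: judged by the values, each of 1659 selected genes had been turned into a z-score by the authors over these 16 libraries and 1 further library that was not used here. The submitters' processing notes name FastQC, STAR, RSEM, DESeq2 and the mm10 build; their versions and settings are not given in the sources used here. The depth of these libraries is unknown, so no counting interval can be given, and the number of libraries sets the precision. For most genes the controls take up most of the variance, so a small SD difference can still separate the subtypes. Genes with control means nearer 0, such as H19 (-0.353), A430089I19Rik (-0.577) and Gpnmb (-1.22), are exceptions. All per-sample columns could be mapped to a sample.

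The z-scores were fitted in limma 3.58.1 (R 4.3.3) with a mean for each group, no trend, 13 residual degrees of freedom, two-sided tests and Benjamini-Hochberg adjustment over all 1659 genes. The call threshold was an adjusted p under 0.05. Members and the 35 gene lists were chosen with earlier results of these data known. The rule named, per direction, the 12 called genes without overlap and with the largest difference, up to 4 called members of each list by smallest p, and 23 genes fixed by name, of which 9 are in the table. Genes outside the rule were chosen after their values were seen: most of those farther from the controls in subtype A, Ankrd1, Sdhb and the members Ahr, Ajuba, Amotl2, C4a, Ccnd1, Cd247, Cd74, Clec4f, Col1a1, Col1a2, Col3a1, Cox6a1, Cycs, Cyp1a2, Gadd45b, Hc, Krt8, Lamb2, Lamc1, Ldhd, Myc, Ndufa5, Pgam1, Pkm, Slc7a11, Sox4, Sparc, Spp1, Tead1, Tnfrsf19 and Uqcrc1. Lists were counted, not tested. The listed ribosomal proteins and mesothelial markers had no member in the table. The erythroid list had Alas2 alone, called higher (0.336 SD) but not without subtype A replicate 1 or 4. The pancreatic acinar list had Cela1 alone, not called (0.379 SD).

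Alternatives were a fit without controls, rescaling over the tumours, subtracted library medians, robust empirical Bayes, array weights, an exact permutation test over 715 splits, a threshold of 0.01, and leaving out each library. Leaving out subtype B replicates 1, 2 and 3 together was added after seeing the data. The test was checked on simulated data. Coordinates come from GENCODE (GRCm38, 1648 of 1659 symbols matched) and promoters from RefSeq (GRCm38.p6, 1290 matched). A few genes selected by the rule are not reported here.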

Additional observations from a re-analysis of the deposited data

Results flagged for a closer look

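Among the named genes, 254 sets of values within 1 subtype were examined for a single library far from the others, and 17 were found, where chance alone gives about 1 in 20. The library with the gap was subtype B replicate 6 in 7 of them, always as the highest of the 9: Axin2 at 2.21, Csrp3 at -0.359, Cyp2c67 at -0.139, Hal at -0.400, Kdr at -0.125, Mbl2 at -0.370 and Ugt2b1 at -0.416. Apart from Axin2 these genes were high in the controls. Alas2 was highest in subtype B replicate 3, at -0.306.

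In subtype A, replicate 1 was far above the others for Cyp2c67 (1.11) and far below them for Lrrc39 (0.118). It was also flagged as the highest for St14 (-0.375). There the other subtype A libraries lay close together, at -0.463 to -0.460, so the gap itself was small. Replicate 2 was lowest for Mx1 (-1.05) and highest for Tgfb2 (0.180). Replicate 3 was lowest for Cyp4f14 (-0.194), Kdr (-0.283) and Pamr1 (-0.828), and highest for Elf4 (-0.215).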

How the results depend on the processing

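Against 1014 called genes, 588 genes were called with library medians subtracted (116 higher and 472 lower), of which 462 were among the 1014. The difference took the other sign for 79 of the 1014. There were 642 called at an adjusted p under 0.01 (467 higher and 175 lower). Leaving out 1 library gave 764 to 1085 called genes, 517 to 752 higher and 246 to 374 lower, with the fewest calls without subtype A replicate 1 and the fewest lower calls without subtype A replicate 4. The other alternatives gave 994 to 1232 called genes, and none of them changed the sign of a call. With library medians subtracted, Cyp2d9 (-0.0158 SD), H19 (-0.247 SD, adjusted p = 0.0359) and Hal (-0.0522 SD) turned negative. Of 121 named genes that were called, 59 were called under every alternative. Alb, Epcam, Sox9 and Afp passed under some. No paired analysis was possible because the replicate numbers follow accession order and pair no samples. Depth is unknown, and 4 subtype A libraries, 1 of which stands apart, limit what can be compared.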
